A study of Homo sapiens with 12 samples.

Results

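The effect of a low dose of actinomycin D, 5 nM for 24 h, was measured in A673 cells against DMSO for the same time, across every gene that the arrays name with a single symbol. A673 is an established Ewing sarcoma line, so all results describe 1 line; it carries the fusion of EWSR1 to FLI1, which encodes the chimeric transcription factor EWS-FLI1, and every group shares that fusion. The comparison rests on 4 of the 12 Affymetrix Gene ST arrays of the series, 2 of 5 nM actinomycin D and 2 of DMSO. Untreated cells at time 0 and cells given 50 nM actinomycin D for 24 h, 2 arrays each, served as further reference. The remaining 4 arrays, of shRNA against FLI1 or lacZ, entered the shared estimate of spread and are quoted only for a few genes of the EWS-FLI1 lists. Of 32321 probe sets, 19158 carried a single symbol, and with 1 probe set per gene 18404 genes were compared. The study asked whether a low dose of the drug lowers the expression that EWS-FLI1 drives.

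Actinomycin D is an antibiotic and chemotherapy agent that intercalates into DNA, preferentially beside GC steps, and stops RNA polymerases as they move along the template. RNA polymerase I, which transcribes the ribosomal RNA genes, is known to be more sensitive to it than RNA polymerase II. Immediate-early genes are short genes induced within minutes of a stimulus without new protein synthesis, and many of their transcripts are short-lived.

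The values are log2 signals after RMA normalization, in which the arrays are forced to a common distribution, so they report the level of a transcript relative to the others and hide a loss shared by all. In bulk RNA, fewer cells with a transcript and less of it per cell cannot be told apart. Arrays of a group correlated at 0.995 to 0.998, array medians lay between 6.67 and 6.83, and no columns were identical. The study's methods describe duplicate treatments with 5 nM actinomycin D and with DMSO. Nothing in the labels says that the 2 arrays of a group came from separate cultures. The p-values therefore speak to the array-to-array spread alone, and part of that spread may be technical. Of 13 measured markers of Ewing sarcoma, 12 lay over 7.44, the DMSO median across genes, and their mean was 10.88 and 10.83 on the DMSO arrays and 10.38 and 10.35 at 5 nM. Epithelial markers had means of 5.53 and 5.64 with DMSO and 5.87 and 5.71 at 5 nM, with 1 of 9 above that median and 0 passing the test in either direction. Endothelial markers went from 5.76 and 5.87 to 6.05 and 6.06 (0 of 8 above the median), and blood markers from 5.75 and 5.91 to 6.13 and 6.13 (2 of 10 above it). The 4 blood markers that rose were CD3E, CD79A, CD14 and CD68, and the 3 endothelial ones were CDH5, KDR and CLDN5. The calls of CD14, CDH5 and KDR were lost without the first DMSO array, that of CDH5 also without the second; those of CD14, CDH5 and CLDN5 were lost without the second 5 nM array and that of KDR without the first. Their part in the results was not tested.

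At 5 nM actinomycin D more genes were lower than higher by over 2-fold, whereas more rose than fell at any fold without ribosomal protein centring. The genes that stood highest were mostly short while those that stood lowest were long. By the study's thresholds, a fold over 2 at an adjusted p under 0.01 (limma, Benjamini-Hochberg over 18404 genes), 486 genes were higher (2.64% of genes tested) and 1447 lower (7.86%). With a looser criterion, an adjusted p under 0.05 at any fold, for which "rose" and "fell" are kept, 5581 genes rose (30.3%) and 4234 fell (23.0%). The median log2 fold change over all genes was 0.12, while the median level of all genes was 7.44 with DMSO and 7.40 at 5 nM. With each array centred on its 58 cytoplasmic ribosomal protein genes, all changes shifted by −0.36. Then 191 genes were higher (1.04%) and 2450 lower (13.3%), 1660 rose (9.02%) and 8304 fell (45.1%). The share of calls that were higher was 25.1% without this centring and 7.23% with it. Directions near 0 therefore depend on the scale, and counts under both scales are given for the gene groups. Those counts are to be read beside these shares over all genes, which differ with signal. Lower by more than 2-fold were 0.19% of genes with a mean log2 signal up to 5.57, 16.3% at 8.10 to 9.42 and 13.3% above. Higher were 0.462%, 5.0% and 2.17% of the same classes. Among Ewing sarcoma markers 2 rose and 7 fell (2 and 11 with centring), and with centring 0 epithelial markers rose and 2 fell, 2 blood markers rose and 2 fell, and 0 endothelial markers rose and 1 fell.

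The control background was small. DMSO against untreated cells gave 1 gene higher by these thresholds (0.00543% of genes) and 0 lower (0.0%), with 1383 genes at an unadjusted p under 0.05 in the same limma fit. The 1 gene was FOSB, a subunit of the AP-1 transcription factor, at log2 signals of 6.93 and 6.85 in untreated cells and 8.38 and 8.15 with DMSO (log2 fold change 1.37, adjusted p = 0.0017). It was not called with either untreated array or the first DMSO array left out. Against untreated cells in place of DMSO, 540 genes were higher (2.93%) and 1341 lower (7.29%) at 5 nM.

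The 12 largest rises were led by PLK2, a polo-like kinase. Its log2 signal was 5.74 and 5.63 with DMSO, 5.68 and 5.84 in untreated cells and 10.46 and 10.49 at 5 nM, a 27.6-fold difference (log2 fold change 4.79, standard error 0.09, adjusted p = 5.5e-10, limma). NR4A2, an orphan nuclear receptor and immediate-early gene, stood at 6.88 and 6.94 with DMSO and at 10.29 and 10.55 at 5 nM, a log2 fold change of 3.51. SAT1, which acetylates spermidine and spermine and so starts their breakdown, went from 8.59 and 8.23 to 11.86 and 11.78 (3.41). In all 3 genes the treated arrays lay far above both control groups. The others were LRRTM2, a synaptic adhesion protein (3.09), the small GTPase RASL11B (3.05), the poly(A) polymerase TENT5C (2.96), the arginine- and serine-rich protein RSRP1 (2.89), the stress protein GADD45B (2.87), the U1 small nuclear RNA variant RNVU1-4 (2.77), the zinc-finger repressor SNAI1 (2.76), the Notch pathway inhibitor NRARP (2.73) and the EGF-family growth factor HBEGF (2.66). RNVU1-4 has near-identical copies, so its value is uncertain. Against untreated cells the log2 fold changes of these genes ran from 2.45 (HBEGF) to 4.71 (PLK2).

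The 12 largest falls were all in genes spanning more than 200 kb. B3GALT1, a galactosyltransferase, went from log2 signals of 8.18 and 8.35 with DMSO to 4.34 and 4.37 at 5 nM, which left 6.66% of the signal (log2 fold change −3.91, standard error 0.10, adjusted p = 2e-09, limma). SYT1, the calcium sensor of synaptic vesicles, stood at 10.78 and 10.85 with DMSO and at 7.13 and 7.47 at 5 nM (−3.51). SIPA1L1, a regulator of the GTPase Rap, went from 11.02 and 11.02 to 7.63 and 7.58 (−3.41). None of the treated arrays came near either control group. Groups whose arrays do not overlap were common, in 13874 of the genes tested (75.4%). Next came the serotonin receptor HTR1F (−3.23), the membrane protein TMEM117 (−3.21), the teneurin TENM2 (−3.21), the Arf exchange factor PSD3 (−3.18), the zinc-finger gene ZNF609 (−3.15), the filopodial myosin MYO10 (−3.15), the transcription factor NFIA (−3.13), the receptor kinase GRK5 (−3.11) and the death-associated kinase DAPK1 (−3.08). Their spans in the RefSeq annotation of GRCh38.p14 ran from 201 kb (HTR1F) to 1290 kb (TENM2), against 0.164 kb (RNVU1-4) to 96.0 kb (RSRP1) among the 12 largest rises.

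At 50 nM, a 10-fold higher dose, these genes stood nearer to DMSO. PLK2 read 8.45 and 8.38, NR4A2 7.67 and 7.56, and NRARP 8.86 and 9.08, against 11.45 and 11.42 at 5 nM. Among the falls, SYT1 read 10.54 and 10.51, a little below its DMSO values, HTR1F 8.28 and 8.17, and B3GALT1 6.34 and 6.50. The genes were chosen on the 5 nM arrays, which both dose comparisons share, so their values are given side by side only. Between the doses, 797 genes were higher (4.33%) and 1224 lower (6.65%) at 50 nM than at 5 nM.

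Change at 5 nM followed the span of a gene, the distance between the ends of its RefSeq annotation. Among 7449 protein-coding genes with a mean log2 signal over 8, the median log2 fold change was 0.38 for spans up to 5 kb (707 genes), 0.39 at 5 to 10 kb (831), 0.28 at 10 to 20 kb (1234) and −0.03 at 20 to 50 kb (2131). It was −0.52 at 50 to 100 kb (1275 genes), −1.05 at 100 to 200 kb (840), −1.43 at 200 to 500 kb (366) and −1.54 beyond 500 kb (65). The share of genes lower by more than 2-fold was 0.99% in the shortest class and 76.9% in the longest, and the share higher went the other way, from 10.5% to 0%. From untreated to DMSO-treated cells the class medians lay between −0.02 and 0.04. With ribosomal protein centring the medians ran from 0.02 in the shortest class to −1.90 in the longest, each class moving by the same amount. Spearman's correlation across these genes, which are not independent replicates, was −0.706 at 5 nM and 0.17 between DMSO and untreated cells. From 5 to 50 nM, the medians were −0.19 in the shortest class, 0.69 at 100 to 200 kb and 1.38 beyond 500 kb, a comparison that shares the 5 nM arrays.

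Long genes did not all fall, nor did all short genes escape. Of 199 genes over 300 kb with a mean log2 signal over 8, 189 fell, 153 of them by more than 2-fold, and 0 rose. The 5 with the highest changes, named after their values were seen, were DNER, a Notch ligand-like protein (0.20), SH3KBP1, an endocytic adaptor (0.12), CLSTN2, a synaptic cadherin-family protein (−0.00), TUSC3, a subunit of oligosaccharyl transferase (−0.02), and the phosphodiesterase PDE4B (−0.07). CLSTN2, which spans 642 kb, read 10.89 and 10.78 with DMSO and 10.81 and 10.85 at 5 nM. Its arrays overlapped. Beyond 100 kb, 1 gene was higher by more than 2-fold: SGK1, the serum- and glucocorticoid-regulated kinase, at 9.12 and 9.18 with DMSO and 10.18 and 10.13 at 5 nM (1.01). Up to 10 kb, 10 genes were lower by more than 2-fold. They were LIAT1 (−1.83), the RNA-binding protein HNRNPDL (−1.60), the receptor GPR75 (−1.50), PLPP6 (−1.27), the linker histones H1-5 (−1.24) and H1-3 (−1.02), the arginine methyltransferase PRMT6 (−1.14), ID3, an inhibitor of DNA binding (−1.10), the nucleoside transporter SLC29A2 (−1.03) and GK3 (−1.0035), all named after their values were seen. A span covers every annotated transcript, so it can exceed the length of the form a cell makes.

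Immediate-early transcription factors rose almost as a whole. Of 9 measured AP-1 genes 8 rose and 0 fell, with a median log2 fold change of 0.96, and with ribosomal protein centring 7 rose and 1 fell; over all genes 30.3% rose and 23.0% fell. JUN, the founding subunit, read 8.53 and 8.60 with DMSO and 9.94 and 9.95 at 5 nM (1.38, standard error 0.12, adjusted p = 2.8e-06, limma), and JUNB 9.07 and 9.02 against 10.43 and 10.29 (1.32). The stress factor ATF3 rose by 1.27 and FOSL1 by 1.07. FOS read 8.62 and 8.87 in untreated cells, 9.42 and 9.66 with DMSO and 10.60 and 10.40 at 5 nM, so its level differed between the control groups too, though that difference did not pass (0.80, adjusted p = 0.19, limma). JUND, the constitutive member, named after its values were seen, stood at 9.91 and 10.06 with DMSO and 9.98 and 9.94 at 5 nM.

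Of 19 other immediate-early genes 16 rose and 1 fell, with a median of 0.92, and with centring, or without the second 5 nM array, 2 fell, while 13 rose with centring. After NR4A2 came the matricellular proteins CCN2 (2.00) and CCN1 (1.99) and the pluripotency factor KLF4 (1.72). CCN1 stood at 8.70 and 8.63 with DMSO and at 10.65 and 10.67 at 5 nM, and CCN2 at 9.44 and 9.40 against 11.49 and 11.35. The member that fell was EGR1, a zinc-finger factor that serum induces within minutes, from 11.53 and 11.51 to 10.77 and 11.07 (−0.60, standard error 0.10, adjusted p = 0.00055). Untreated cells had 11.16 and 11.22, between the DMSO and 5 nM arrays, and against them the change in EGR1 was −0.27. MYC, the proto-oncogene and growth regulator, read 11.02 and 11.002 with DMSO and 11.41 and 11.28 at 5 nM (0.33, adjusted p = 0.0042), but −0.03 with ribosomal protein centring. At 50 nM it read 9.42 and 9.56, lower than at 5 nM by a direct contrast (−1.86, adjusted p = 2.2e-08, limma). MCL1, the short-lived survival protein of the BCL2 family, rose from 10.34 and 10.27 to 11.56 and 11.61 (1.28) and stood at 9.80 and 9.92 at 50 nM.

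Feedback inhibitors of MAP kinase and cytokine signalling rose as well, in 17 of 20 cases, with 2 falling and a median of 0.79 (13 and 3 with centring). RGS2, which quenches G protein signals, went from 8.89 and 8.77 to 10.77 and 10.74 (1.93), SOCS1, which blocks JAK kinases, from 6.89 and 6.97 to 9.02 and 8.56 (1.85), and the nuclear ERK phosphatase DUSP5 from 8.60 and 8.55 to 10.15 and 10.13 (1.57). SPRED2, a Ras pathway inhibitor spanning 125 kb, went from 10.96 and 10.94 to 9.12 and 9.20 (−1.79). Genes that shorten or bind unstable mRNA were mixed, with 10 of 18 rising and 6 falling, and 10 and 7 with centring. On one side stood the deadenylation cofactors TOB1, from 8.87 and 8.86 to 11.06 and 11.01 (2.17), and BTG1, from 9.54 and 9.57 to 11.51 and 11.58 (1.99). On the other stood subunits of the CCR4-NOT deadenylase that these cofactors recruit, the scaffold CNOT1 (12.03 and 12.03 against 10.55 and 10.64, −1.43) and the nuclease CNOT6 (−1.43). The decapping enzyme DCP2 changed least, by 0.10, or −0.26 with centring. CNOT1 and CNOT6 span 110 and 84.0 kb, and TOB1 and BTG1 5.76 and 5.57 kb. The list also holds HEXIM1, which acts on transcription and not on decay.

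**Figure D1:**
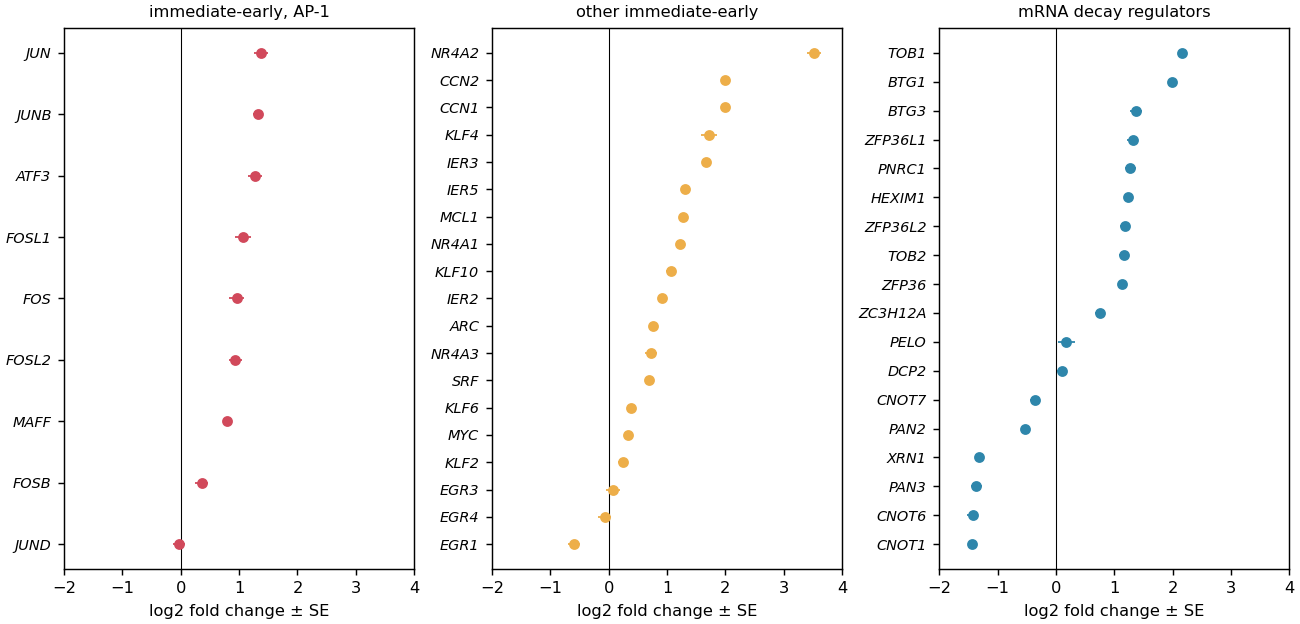
Log2 fold change with its standard error for each measured member of 3 gene lists at 5 nM actinomycin D against DMSO, 2 arrays per group. In the AP-1 list JUND (−0.03) is the member that lies lowest, among the other immediate-early genes EGR1 (−0.60) does, and the decay regulators run from TOB1 (2.17) to CNOT1 (−1.43).

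NF-kB targets and feedback genes rose in 23 of 30 cases and fell in 2, with a median of 0.50, and with centring 10 rose and 3 fell; 1 fell with either DMSO array or the second 5 nM array left out. PTGS2, or cyclooxygenase 2, went from 7.54 and 7.49 to 10.17 and 10.16 (2.65), the cytokine IL1A from 7.91 and 7.76 to 9.82 and 9.96 (2.05), TNFAIP3, which switches NF-kB signalling off, from 7.24 and 7.13 to 8.72 and 8.72 (1.53), and the mitochondrial superoxide dismutase SOD2 from 9.38 and 9.26 to 10.85 and 10.52 (1.37). All 4 read higher on both 5 nM arrays than on any control array. NFKB1, which encodes the p105 and p50 subunits and spans 116 kb, fell from 9.01 and 8.77 to 7.69 and 7.62 (−1.23) and was named after its values were seen.

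CDKN1A, the cell-cycle inhibitor p21, went from 8.34 and 8.35 with DMSO to 9.53 and 9.51 at 5 nM (1.18, standard error 0.06, adjusted p = 7.9e-08, limma). MDM2, a ubiquitin ligase, fell from 10.72 and 10.80 to 10.25 and 10.08 (−0.60, adjusted p = 6.3e-05). Both changes were larger than the spread between arrays of a group, in opposite directions. In the BCL2 family 9 of 15 rose and 2 fell, and with centring 5 rose and 5 fell. PMAIP1, the BH3-only protein NOXA, went from 9.98 and 9.90 to 12.20 and 12.15 (2.24). BCL2L11, the BH3-only protein BIM, went from 7.23 and 7.09 to 9.29 and 9.34 (2.16) and BCL2, which it binds, from 8.13 and 8.07 to 6.76 and 6.77 (−1.34). BCL2 spans 197 kb and BCL2L11 47.5 kb.

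The transcription machinery itself was split, as were genes in general (30.3% rose and 23.0% fell). Of 15 RNA polymerase I genes 9 rose and 3 fell, with a median of 0.30, and with centring 5 rose and 6 fell with a median of −0.06. POLR1A, its catalytic subunit, went from 10.15 and 10.08 to 8.92 and 8.97 (−1.17, adjusted p = 1.4e-07, limma), while POLR1C (1.62), POLR1G (1.26) and POLR1F (1.07) rose, POLR1C from 9.31 and 9.07 to 10.93 and 10.68. POLR1A spans 85.7 kb, POLR1C 45.3 kb, POLR1F 13.6 kb and POLR1G 4.09 kb. Ribosome biogenesis genes rose in 26 of 53 cases and fell in 16, or 16 and 25 with centring. The largest changes among them were falls, in the small-subunit processome factors UTP20 (−1.64) and UTP18 (−1.42), the AAA ATPase MDN1 (−1.62) and the helicase DDX10 (−1.53), and the smallest was in the GTPase GNL2 (0.01, or −0.35 with centring).

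RNA polymerase II and its general factors rose in 18 of 43 cases and fell in 15, with a median of 0.05, and with centring 5 rose and 24 fell. Lower by more than 2-fold were 3 of the 43 (6.98%), near the 7.86% of all genes. The median over all genes was 0.12, with 30.3% rising and 23.0% falling. POLR2A, the catalytic subunit, went up from 11.16 and 11.17 to 11.87 and 11.99 (0.76, adjusted p = 5e-06), as did TAF7 of TFIID (0.99). MNAT1 of TFIIH (9.37 and 9.44 against 7.57 and 7.43, −1.91), TAF2 of TFIID (−1.54) and GTF2F2 of TFIIF (−1.33) fell. POLR2E changed least (−0.03), and fell by 0.39 with centring (adjusted p = 0.0013, limma). Among elongation factors 13 of 33 rose and 11 fell (5 and 18 with centring). HEXIM1, which holds the elongation kinase P-TEFb inactive, went from 8.57 and 8.63 to 9.80 and 9.85 (1.23) and the bromodomain protein BRD2 from 10.91 and 10.82 to 12.20 and 12.19 (1.33). Subunits of the super elongation complex, MLLT3 (9.68 and 9.74 against 6.79 and 6.53, −3.05) and AFF1 (−1.76), fell, and NELFA changed least (−0.01), but fell by 0.37 with centring (adjusted p = 0.003, limma). Among splicing factors and their kinases 9 of 39 rose and 18 fell (4 and 30 with centring), from the kinase CLK1 (1.37) to the kinases SRPK1 (−1.23) and SRPK2 (−2.08), with HNRNPDL (−1.60) between these kinases.

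Of 11 topoisomerase and related genes 9 fell and 2 rose, and 9 fell and 0 rose with centring. BLM, the Bloom helicase, read 9.94 and 9.84 with DMSO and 8.00 and 7.95 at 5 nM (−1.92), TDP1, which removes stalled topoisomerase I from DNA, 9.83 and 9.71 against 8.34 and 8.05 (−1.57), and TOP2B 10.26 and 10.38 against 9.39 and 9.23 (−1.01). TOP1 fell by 0.64 and TOP2A, the enzyme of dividing cells, by 0.20 (adjusted p = 0.047). The call of TOP2A was lost with any 1 of the 4 arrays left out (changes of −0.17 to −0.22), and its change was 0.07 when untreated cells were the control. Without any 1 of the 4 arrays, 1 gene of this list rose in place of 2.

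Histone-modifying enzymes and chromatin remodellers fell in 59 of 84 cases and rose in 13, with a median of −0.85 (68 fell and 4 rose with centring). Lower by more than 2-fold were 31 of them (36.9%, against 7.86% of all genes). The 4 largest changes were in the H3K4 methyltransferase KMT2C (10.14 and 10.03 with DMSO, 7.60 and 7.59 at 5 nM, −2.50), ARID2, a subunit of the PBAF remodeller (10.74 and 10.76 against 8.50 and 8.59, −2.20), the acetyltransferase CREBBP (10.71 and 10.74 against 8.57 and 8.64, −2.12) and the H3K36 methyltransferase NSD1 (9.32 and 9.20 against 7.04 and 7.24, −2.12). In each, both 5 nM arrays lay far below both DMSO arrays. The median span of the list was 84.1 kb, against 24.5 kb over all genes with a span. Members that rose included BRPF1 (0.88) and KAT2A (0.84), named after their values were seen, which span 16.3 and 8.26 kb.

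Homologous recombination, Fanconi anaemia and checkpoint genes fell in 26 of 36 cases and rose in 5, with a median of −0.66 (31 and 2 with centring) and a median span of 63.3 kb. FANCC of the Fanconi core complex went from 8.43 and 8.20 to 6.36 and 6.32 (−1.97). WEE1, the kinase that restrains entry into mitosis, rose from 8.77 and 8.60 to 9.71 and 9.56 (0.95) and was named after its values were seen. Of 27 cyclins, their inhibitors and other genes of G1 and S phase, 11 rose (40.7%) and 7 fell (25.9%), beside 30.3% and 23.0% over all genes. With centring 6 rose and 14 fell. By more than 2-fold 3 were higher and 3 lower. Besides CDKN1A, E2F8 (1.10) and the cyclin CCNE1 (1.09) were higher, both named after their values were seen. The retinoblastoma gene RB1 read 11.11 and 11.05 with DMSO and 9.21 and 9.39 at 5 nM (−1.79), but 11.23 and 11.19 at 50 nM. Its relative RBL2 (−1.39) and the transcription factor E2F3 (−1.27) fell too.

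**Figure D2:**
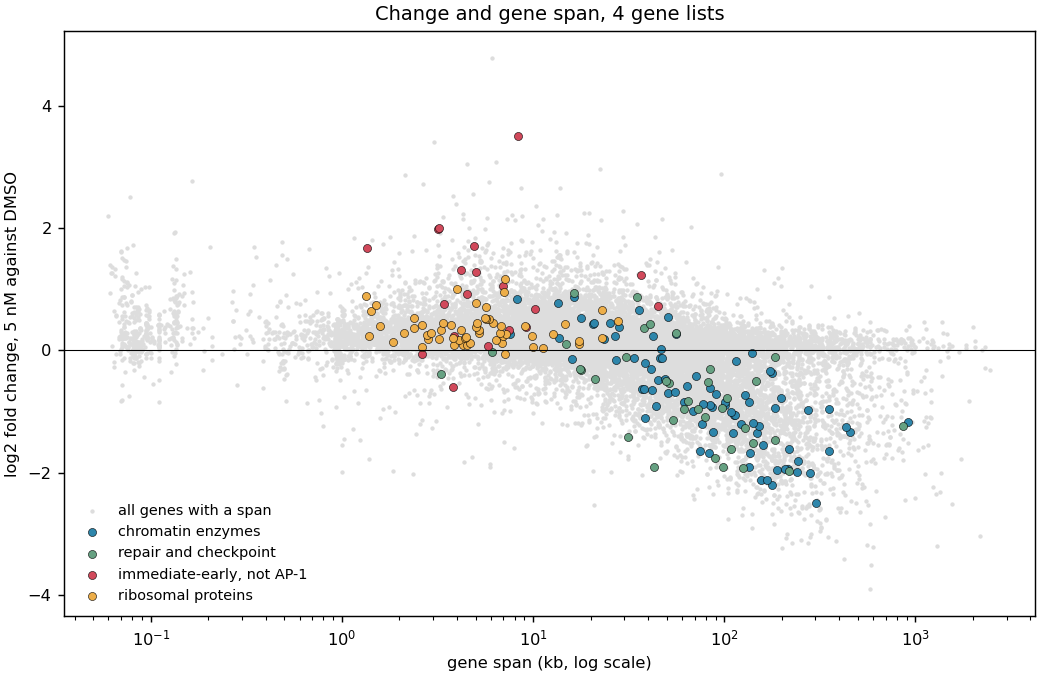
Log2 fold change at 5 nM actinomycin D against DMSO (vertical axis) and gene span in kb (horizontal axis, log scale) for all genes with a span (grey) and for members of 4 lists (colours). NR4A2 (3.51) lies highest among the coloured points and KMT2C (−2.50) lowest, and the chromatin list has a median span of 84.1 kb.

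Genes of cell adhesion and axon guidance, many of which are long, fell in 33 of 60 cases and rose in 10, with a median of −0.40 (41 and 5 with centring) and a median span of 313 kb. After LRRTM2 the largest changes were falls in the neuroligin NLGN4X (10.23 and 10.33 against 7.33 and 7.68, −2.77), the cadherin CDH11 (11.64 and 11.70 against 9.25 and 9.10, −2.50) and the guidance ligand SLIT2 (10.50 and 10.36 against 8.02 and 8.15, −2.34). LRRTM2, of 6.42 kb, was the short gene among these. Receptor tyrosine kinases rose in 8 of 31 cases and fell in 11 (1 and 15 with centring), and 5 rose with either DMSO array or the first 5 nM array left out. Their shares of 25.8% rising and 35.5% falling stand beside 30.3% and 23.0% over all genes. Their median span was 82.8 kb, and their median change of 0.12 was −0.78 when genes of low signal were left out. IGF1R, the receptor through which Ewing sarcoma cells are known to receive growth signals, went from 9.91 and 9.84 to 7.40 and 7.15 (−2.60), its relative INSR from 8.11 and 8.09 to 6.47 and 6.40 (−1.66) and the collagen receptor DDR2 from 11.84 and 11.73 to 10.18 and 10.22 (−1.59). RYK fell by 1.49.

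Genes listed, from general knowledge of published work, as activated by EWS-FLI1 fell in 26 of 46 cases and rose in 8, with a median of −0.37 (37 and 3 with centring). The list is not the study's own gene set. Those that fell were 56.5%, against 23.0% of all genes, and 11 were lower by more than 2-fold (23.9%, against 7.86%). The list was not matched to all genes for signal. Of genes with a mean log2 signal of 8.10 to 9.42, 16.3% were lower by more than 2-fold, and of those above 13.3%. The largest falls were in JARID2, a partner of Polycomb (9.83 and 10.00 against 7.51 and 7.27, −2.52), the Wnt modulator DKK2 (11.82 and 11.70 against 9.57 and 9.60, −2.17), the zinc-finger factor BCL11B (9.71 and 9.62 against 7.54 and 7.57, −2.11) and the paired-box factor PAX7 (8.71 and 9.002 against 7.47 and 7.56, −1.34). Those 4 genes span 276, 115, 103 and 118 kb. Members that rose include HOXD13 (9.60 and 9.57 against 10.49 and 10.56, 0.94) and the peptide hormone CCK (0.78), of 8.46 and 8.36 kb, named after their values were seen. Genes listed in the same way as repressed by EWS-FLI1 rose in 26 of 44 cases (59.1%) and fell in 8 (18.2%), against 30.3% and 23.0% of all genes. Their median was 0.30, but with centring 15 rose and 12 fell with a median of −0.06. Besides CCN1 and CCN2, DKK1, a secreted Wnt antagonist, stood highest (5.80 and 5.81 against 8.27 and 7.72, 2.18), and CDH11 and the focal adhesion protein TNS1 (9.54 and 9.51 against 7.00 and 7.16, −2.45) stood lowest. The placements need not hold in A673. With FLI1 shRNA CDH11 read 11.13 and 11.14, against 11.79 and 11.74 with lacZ shRNA, and TNS1 9.28 and 9.22 against 9.63 and 9.60. DKK1 read 10.68 and 10.55 against 5.99 and 6.04, and CCN1 and CCN2 were higher too. JARID2, BCL11B and PAX7 read lower with FLI1 shRNA, but DKK2 did not. The activated list had a median span of 40.7 kb and the repressed list of 17.2 kb. FLI1 itself read 8.59 and 8.61 with DMSO and 8.50 and 8.55 at 5 nM, and its change did not pass (−0.08, adjusted p = 0.48), although it fell by 0.44 with centring. EWSR1 fell by 0.30 (adjusted p = 0.0056), a call lost when quantile normalization was applied again. The probes of neither gene separate the fusion transcript from the unfused one. NR0B1 and RPS26 had no probe set with a single symbol and are not reported here.

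Small nucleolar RNAs, which guide the modification of ribosomal RNA and are released from introns, rose in most cases. Of 115 box C/D genes 74 rose and 4 fell, with a median of 0.56, and with centring 43 rose and 16 fell; 2 fell without the first DMSO array or the second 5 nM array. Of 77 box H/ACA and Cajal body genes 53 rose and 0 fell, with a median of 0.57, and 24 and 5 with centring; without the second DMSO array 1 fell and without the first 5 nM array 2. SNORD45C went from 8.35 and 7.90 to 10.58 and 10.69 (2.51), SNORA14A from 6.43 and 6.71 to 8.68 and 8.33 (1.93) and SNORA21 from 8.62 and 8.47 to 10.49 and 10.44 (1.92). Several of these RNAs have close copies, and an array probe also reads their host transcript, so single values are uncertain. By annotation class, 35 of 175 snoRNA genes were higher by more than 2-fold and 0 lower, against 12 and 10 of 626 lncRNA genes. Over all genes 2.64% were higher and 7.86% lower.

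Fewer microRNA genes passed than genes in general: 42 of 173 rose (24.3%, against 30.3%) and 3 fell (1.73%, against 23.0%), with a median of 0.14. Low signal limits this comparison. MIRLET7G and MIR15B read under 5.57 on both DMSO arrays. Among genes with a mean log2 signal up to 5.57, 0.462% were higher and 0.19% lower by more than 2-fold. The part of signal in the microRNA counts was not tested. With centring 6 rose and 56 fell, so their direction depends on the scale. Without the first DMSO array 26 rose and 1 fell, and without the second 5 nM array 23 rose and 5 fell. The probes read precursors and host transcripts and not the mature forms. MIRLET7G stood at 5.25 and 4.98 with DMSO and 6.27 and 6.50 at 5 nM (1.27, adjusted p = 3e-05, limma), and 5.66 and 5.98 in untreated cells, so it rose by less against them (0.57). MIR15B rose by 1.04 (adjusted p = 0.023), a call lost against untreated cells, with centring, and without the second DMSO array (0.69) or the second 5 nM array (0.93). RefSeq gave mature sequences for 164 of the 173 genes. Those of 2 let-7 genes and of MIR15B are shown with the seed, bases 2 to 8 from the 5′ end, in capitals, because the let-7 pair shares a seed and MIR15B has another (GRCh38.p14, chr3:52268336-52268357 minus strand, chr19:51692793-51692814 plus strand and chr3:160404607-160404628 plus strand).
hsa-let-7g-5p: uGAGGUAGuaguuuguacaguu
hsa-let-7e-5p: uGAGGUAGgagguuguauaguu
hsa-miR-15b-5p: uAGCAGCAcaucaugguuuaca
MIRLET7E, which encodes the second of these and was chosen for the shared seed, had a log2 fold change of 0.81.

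Cytoplasmic ribosomal protein genes, which are short and strongly transcribed, rose in 41 of 58 cases and fell in 0, with a median of 0.29, led by RPL32 (8.38 and 8.02 against 9.39 and 9.34, 1.17) and RPL17 (1.01). Many of these genes have processed copies in the genome. Centring on the same genes gave 8 rising and 15 falling, as its construction sets their mean to 0.

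Promoters were read from RefSeq for 14228 tested genes, as the 250 bases before the start site. The cyclic AMP response element TGACGTCA, which is its own reverse complement, was present in 2.65% of all, in 5.56% of 342 genes higher by more than 2-fold and in 3.31% of 1240 lower. The CArG box, the site of serum response factor, was in 1.22%, 1.75% and 1.05%, and in EGR1 and SRF among the 19 genes of both immediate-early lists that had a promoter. Of the same 19, JUND and MAFF held TGACGTCA. ATGCAT, a sequence that actinomycin D is known to bind, occurred in 2.5%, 1.17% and 1.53%, and GGAAGGAA, a repeat of the ETS core that was searched on both strands, in 3.58%, 4.09% and 3.06%. Median GC content was 63.0%, 64.7% and 66.7%. All of these are descriptions of letters in a window. The windows around TGACGTCA, in capitals, are shown for LRRTM2, one of the 12 largest rises, and for 2 further higher genes that hold it, the adhesion molecule MCAM and the receptor GPR3, with MAFF and JUND of the AP-1 list and DDX10, a holder that fell, all but LRRTM2 chosen after their values were seen (GRCh38.p14, gene strand, chr5:138875359-138875406 minus, chr11:119317135-119317182 minus, chr1:27392566-27392613 plus, chr22:38201920-38201967 plus, chr19:18281795-18281842 minus and chr11:108664977-108665024 plus).
LRRTM2: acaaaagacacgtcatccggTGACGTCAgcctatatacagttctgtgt
MCAM: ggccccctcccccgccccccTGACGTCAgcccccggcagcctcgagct
GPR3: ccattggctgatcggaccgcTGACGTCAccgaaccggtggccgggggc
MAFF: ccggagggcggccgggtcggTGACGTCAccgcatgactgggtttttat
JUND: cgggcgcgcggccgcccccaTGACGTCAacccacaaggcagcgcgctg
DDX10: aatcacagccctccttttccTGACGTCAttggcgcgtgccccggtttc
In log2 signal, LRRTM2 went from 6.46 and 6.09 to 9.32 and 9.40, MCAM from 7.49 and 7.42 to 9.34 and 9.17, GPR3 from 9.18 and 9.16 to 10.78 and 11.03 and MAFF from 7.03 and 6.95 to 7.80 and 7.77. JUND, at 9.91 and 10.06 against 9.98 and 9.94, did not pass the test but fell with centring (−0.39), and DDX10 went from 9.13 and 9.13 to 7.65 and 7.55, so holders of the element lay on both sides and near 0.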

How the data were processed

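RNA of A673 cells was hybridized to Affymetrix Gene ST arrays. The authors made the deposited log2 values by background correction and RMA in affy, with no version stated in the sources used here, and these values were taken as they stand. Samples were grouped by their labels, and 2 arrays per group limit the precision. Each of 18404 single-symbol genes was read from 1 probe set, the one of highest mean over 12 arrays (637 genes had several). Groups were compared in R 4.3.3 with limma 3.58.1 over 6 groups, with 6 residual and 4.45 prior degrees of freedom and Benjamini-Hochberg adjustment. The fit was tested on simulated data. Spans, promoters and microRNAs came from RefSeq GRCh38.p14, with 18376 genes matched by gene ID. Gene lists came from general knowledge, and lists and comparisons were chosen with earlier results of these data known. Named genes are the 12 largest rises and falls whose arrays do not overlap, up to 4 members with the largest changes per list, the member with the smallest change of a mixed list, and 16 fixed genes. Alternatives were the replicate number as a block, only 4 arrays, dim genes left out, other probe sets or rows, other normalizations and centrings, other variance models, controls and thresholds, and each array left out. Some results are not reported here.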

Additional observations from a re-analysis of the deposited data

How the results depend on the processing

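Fold and p limits set the counts: at an adjusted p under 0.05 with no fold limit 5581 genes were higher and 4234 lower, and at a fold over 1.5 the counts were 1800 and 2657. Testing all probe sets gave 961 higher and 1705 lower. With ribosomal protein centring 191 were higher and 2450 lower. Leaving out 1 array at a time gave 427 to 594 higher and 1350 to 1581 lower at 5 nM against DMSO, 729 to 911 higher and 1124 to 1332 lower for 50 nM against 5 nM, and 0 to 2 for DMSO against untreated. The correlation with span was −0.522 over all 16897 protein-coding genes. The replicate number as a block left 486 higher and 1447 lower at 5 nM, and 798 and 1224 between doses. Deviations of same-numbered arrays from their group means correlated at −0.453 to 0.335 between groups. With 2 arrays per group this cannot settle whether same-numbered arrays share a batch, and the labels name none. With the block TOP2A no longer passed (adjusted p = 0.056, limma), and it changed no other call among 180 named genes. Centring on ribosomal protein genes turned the median of these lists: RNA polymerase I −0.0605, RNA polymerase II −0.31, elongation −0.34, proteasome −0.34, EWS-FLI1 repressed −0.0561, ribosome biogenesis −0.12, G1 and S phase −0.23, unfolded protein −0.12, heat shock −0.24, interferon −0.065, cholesterol −0.15, collagens −0.20, receptor tyrosine kinases −0.24, epithelial −0.15, blood −0.21 and endothelial markers −0.15, microRNA −0.22, cytoplasmic −0.0741 and mitochondrial ribosomal proteins −0.26, respiratory chain −0.0555 and ZNF −0.15. The receptor tyrosine kinase median was −0.78 with dim genes left out. The same centring turned CDH5 (−0.0031), DCP2 (−0.26), GNL2 (−0.35) and MYC (−0.0272), and TOP2A was 0.0697 against untreated cells; the cause was not tested. Summed exon length and exon number in place of span were not run. With 2 arrays per group, a permutation of arrays cannot give a two-sided p under 0.333.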

Other observations

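Stress and interferon genes rose more often than they fell at 5 nM actinomycin D, as did all genes (30.3% rose and 23.0% fell). With ribosomal protein centring more fell than rose in each of these groups, as over all genes (9.02% rose and 45.1% fell). The interferon-stimulated genes stayed nearest to balance with centring. Of 31 genes of the unfolded protein and amino-acid stress responses 16 rose and 5 fell, with a median log2 fold change of 0.24 (5 and 13 with ribosomal protein centring), led by the chaperone DNAJB9 (7.75 and 7.78 with DMSO, 9.46 and 9.21 at 5 nM, 1.57, limma) and, downwards, by the sensor ATF6 (−1.14). Among 17 heat shock genes 7 rose and 1 fell (1 and 9 with centring; 3 rose without the first 5 nM array), and DNAJB4 (1.43) alone passed 2-fold. Interferon-stimulated genes rose in 15 of 32 cases and fell in 1 (7 and 8 with centring), with IRF1 (6.95 and 6.86 against 8.89 and 8.16, 1.62) and IFIT1 (6.26 and 6.16 against 8.05 and 7.49, 1.55) in front, and in both the 5 nM arrays lay apart from each other. None of 19 cholesterol synthesis genes passed 2-fold; 11 rose and 4 fell (1 and 9 with centring), and 7 rose without the first DMSO array.

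Zinc-finger genes named ZNF rose in 212 of 480 cases (44.2%) and fell in 81 (16.9%), with a median of 0.21, but 86 rose and 171 fell with centring. Over all genes 30.3% rose and 23.0% fell, or 9.02% and 45.1% with centring. ZNF296 went from 7.49 and 7.71 to 9.29 and 9.57 (1.83) and ZNF704, which spans 256 kb, from 9.80 and 9.81 to 7.85 and 7.89 (−1.93). Respiratory chain subunits rose in 44 of 76 cases and fell in 7 (7 and 24 with centring), or in 4 with either DMSO array or the first 5 nM array left out. Proteasome subunits rose in 12 of 45 (26.7%) and fell in 14 (31.1%), or 4 and 30 with centring. Mitochondrial ribosomal protein genes rose in 27 of 73 (37.0%) and fell in 15 (20.5%), or 10 and 38 with centring. Collagens and lysyl oxidases rose in 9 of 33 and fell in 3 (1 and 11 with centring), led by LOX (1.37). Their median change was 0.16 and their median span 90.1 kb, and 0 were lower by more than 2-fold. Signal was low in the members with the largest changes. The DMSO means of LOX (6.96), COL4A1 (7.61), COL5A2 (7.51) and COL3A1 (7.49) lay under the log2 signal of 8 required in the comparison of spans. The part of signal in the collagen counts was not tested. Fewer collagens and lysyl oxidases rose without the first DMSO array or the second 5 nM array.

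Replication-dependent histone genes rose in 15 of 56 cases (26.8%) and fell in 13 (23.2%), near the 30.3% and 23.0% over all genes. With centring 3 rose and 34 fell. Small nuclear RNAs, listed together with other small RNAs such as RPPH1, the RNA of RNase P, rose in 17 of 28 cases. In that list 1 fell, and with centring 8 rose and 3 fell. Small nuclear RNAs also have near-identical copies, and fewer members rose without the second DMSO array. Host genes of small nucleolar RNAs rose in 6 of 9 and fell in 1 (5 and 4 with centring).

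Over all genes 7.86% were lower by more than 2-fold. Among chromosomes 1 to 22 and X this share was lowest on chromosome 19, 1.38% of 1308 genes with a median span of 14.6 kb. It was highest on chromosome 13, 13.9% of 316 genes with a median span of 45.7 kb. A further 13917 probe sets that stand for no tested gene held 480 higher and 258 lower by the same thresholds in a fit of all probe sets. Of the 18404 genes tested, 2.64% were higher and 7.86% lower in the main fit.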
